A study of Mus musculus with 8 samples.

Results

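MHC class II antigen presentation in the infarcted heart was followed through 9 genes listed by symbol: the class II chains H2-Aa, H2-Ab1 and H2-Eb1, the invariant chain Cd74, the peptide loading genes H2-DMa and H2-DMb1, the transactivator Ciita, and the co-stimulation ligands Cd80 and Cd86. Of these 9 genes, 8 had a probe of their own and were among the 19938 genes tested. H2-DMb1 was read only by a probe annotated to both H2-DMb1 and H2-DMb2 and was not tested. RNA from whole mouse hearts was hybridised to 8 arrays in 4 groups of 2. KO MI hearts came from MAFbx knockout mice with permanent ligation of the left coronary artery, taken 1 day after ligation, and WT MI hearts from wild type mice treated in the same way. KO sham hearts came from MAFbx knockout mice with sham surgery, and WT sham hearts from wild type mice with sham surgery. The sources used here do not give strain, age, how the knockout allele was made, the time after sham surgery, or whether the 2 arrays of a group were separate animals. The p-values therefore measure only the spread between these arrays, which may be technical.

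Class II molecules are pairs of an alpha and a beta chain that show peptides from ingested proteins to CD4 T cells. Cd74 guards the empty groove until endosomal proteases cut it away, and H2-DM then exchanges the remaining fragment for peptide, while Ciita switches on the class II genes through factors bound at their promoters. Cd80 and Cd86 give the second signal through CD28 on the T cell, and in the heart these genes are known chiefly from macrophages, dendritic cells and B cells.

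RefSeq promoter windows (GRCm38.p6) were at hand for 5 of the 9 genes. Those of H2-Eb1, H2-Aa and Cd80 are shown because they contrast a class II beta chain, a class II alpha chain and a co-stimulation ligand. Each runs from 250 bases before to 50 bases after the gene start, and capitals mark matches to AACNGATG, letters from the X box bound by RFX proteins, or to CTGATTGG, letters of the Y box bound by NF-Y. Both strands were searched, and the matches do not overlap.
H2-Eb1, chr17:34305617-34305916, plus strand: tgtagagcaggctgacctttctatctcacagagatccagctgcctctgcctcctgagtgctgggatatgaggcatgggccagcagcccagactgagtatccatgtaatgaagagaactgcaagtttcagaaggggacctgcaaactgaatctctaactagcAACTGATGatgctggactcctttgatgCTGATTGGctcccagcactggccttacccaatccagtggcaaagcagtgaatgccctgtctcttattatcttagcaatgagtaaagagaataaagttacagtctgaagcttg
H2-Aa, chr17:34287774-34288073, minus strand: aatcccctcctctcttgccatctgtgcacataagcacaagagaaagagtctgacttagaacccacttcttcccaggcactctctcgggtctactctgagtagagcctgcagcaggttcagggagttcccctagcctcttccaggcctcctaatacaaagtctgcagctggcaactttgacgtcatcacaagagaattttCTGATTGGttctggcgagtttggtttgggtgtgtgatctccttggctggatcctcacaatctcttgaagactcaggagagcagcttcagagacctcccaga
Cd80, chr16:38458683-38458982, plus strand: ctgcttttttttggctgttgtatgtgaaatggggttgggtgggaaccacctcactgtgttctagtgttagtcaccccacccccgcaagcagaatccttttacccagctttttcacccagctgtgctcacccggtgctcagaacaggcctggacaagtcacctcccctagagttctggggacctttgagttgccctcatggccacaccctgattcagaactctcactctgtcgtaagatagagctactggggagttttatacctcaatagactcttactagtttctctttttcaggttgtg
The H2-Eb1 window held the X box letters as AACTGATG starting 89 bases before the gene start and the Y box letters 62 bases before it. The H2-Aa window held the Y box letters 51 bases before the start and no match to the X box letters, and the Cd80 window held neither. H2-DMb1 had the X box letters as AACTGATG 92 bases before its start, and the windows of H2-DMa held neither motif. Over all 32851 promoter windows, 2.32% held the X box letters and 4.1% the Y box letters. These matches describe the letters and not binding.

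Values are log2 levels, so a difference of 1 is a 2-fold change. Fbxo32, the gene that encodes MAFbx, read 5.14 and 5.46 in KO MI, 8.35 and 8.21 in WT MI, 4.68 and 5.17 in KO sham, and 8.75 and 8.79 in WT sham. It was 7.90-fold lower in KO MI than in WT MI (limma, adjusted p = 0.00041) and 14.4-fold lower in KO sham than in WT sham (adjusted p = 3.77e-05), as the labels require. Cardiomyocyte markers averaged 13.1 to 13.4 in every array, as a heart sample should. Across genes, both arrays of each group correlated at 0.991 to 0.996. In each of WT MI and KO sham, however, 1 array stood apart, namely WT MI replicate 2 and KO sham replicate 1. On the second principal component, with 8.56% of the variance, they lay at -20.2 and -21.2, against 0.63 and 15.3 for their partners. They also had the 2 highest array medians, 5.19 and 5.25, against 5.004 to 5.087 in the other 6 arrays. For the 8 tested genes, differences that move by over 1.5 times without both of them are given both ways. For other genes and probes most differences are given for all arrays alone, and some of those move as much.

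Infarction divided the genes into those of co-stimulation, which rose in both genotypes, and those of the class II molecule itself, of which none passed in both. In KO hearts, 3 of the 8 genes passed the test, Cd80, Cd86 and H2-Aa, all higher in KO MI than in KO sham. Among all genes, 20.8% passed in this comparison, 10.5% as higher and 10.3% as lower. Both KO MI arrays lay above both KO sham arrays for 7 of the 8 genes, all but Ciita, against 28.1% of all genes, and 5 had an unadjusted p under 0.05, against 31.9%. In WT hearts, Cd80 and Cd86 rose and H2-Eb1 fell, again 3 of 8, against 28.1% of all genes that passed, 12.3% as higher and 15.8% as lower. Both WT MI arrays lay above both WT sham arrays for Cd80 and Cd86 (35% of all genes) and below them for H2-Ab1 and H2-Eb1 (31.6% of all genes), and 4 of the 8 had an unadjusted p under 0.05, against 38.8% of all genes. Passing means an adjusted p under 0.05 in limma over all 19938 genes. The median difference of the 8 genes was 0.66 in KO hearts, beside 0.01 for all genes, and -0.05 in WT hearts, beside 0.04 for all genes. Both medians include the arrays that stood apart. Without these arrays the WT differences of H2-Aa, H2-DMa and Cd74 were positive, at 0.23, 0.27 and 0.02. Those of H2-Ab1 and H2-Eb1 stayed negative, at -0.12 and -0.31. The KO differences of H2-Aa, H2-Ab1 and Cd74 were 0.44, 0.49 and 0.41.

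**Figure D1:**
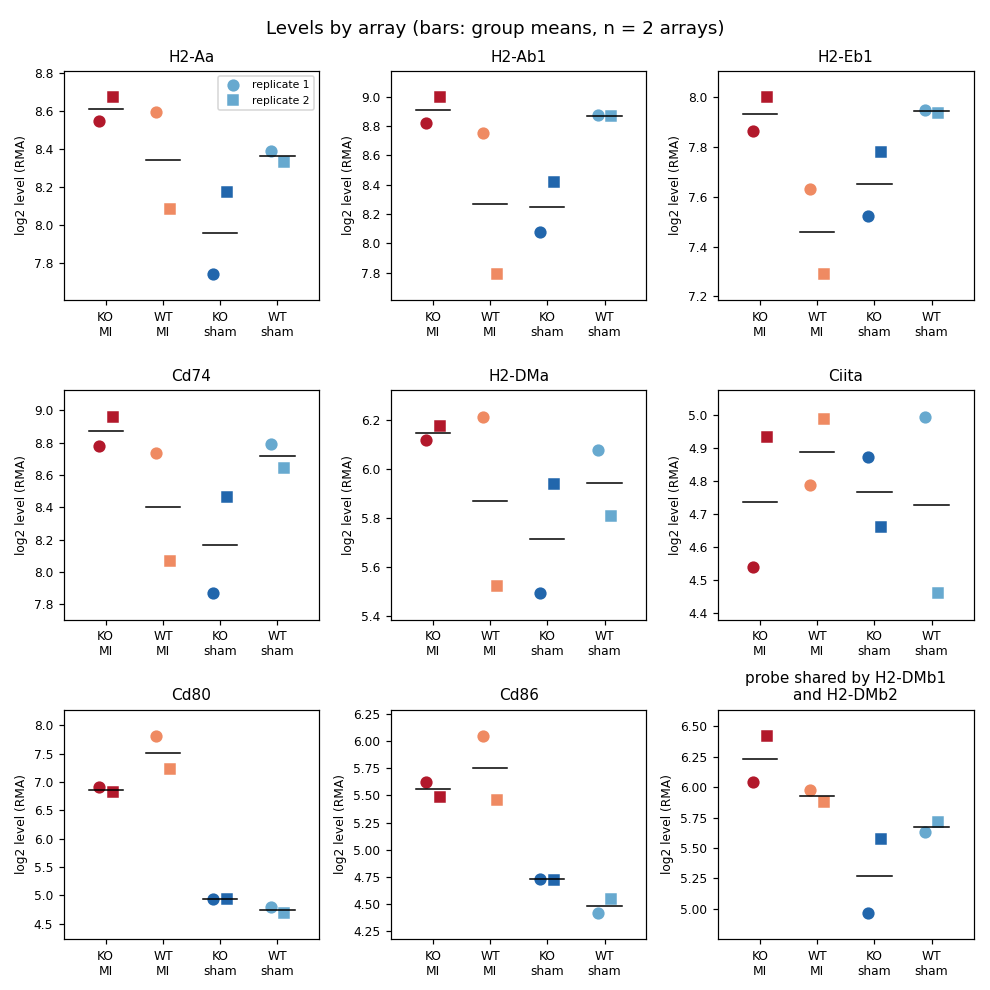
Log2 level (y axis, RMA values, a separate scale in each panel that does not start at 0) of each gene in the 8 arrays, grouped on the x axis as KO MI, WT MI, KO sham and WT sham. Points are arrays, circles replicate 1 and squares replicate 2, and bars are group means (n = 2). Cd80 and Cd86 are higher in every MI array than in every sham array, while the class II genes spread widely within WT MI and KO sham.

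Cd80, the B7-1 ligand of CD28 and CTLA-4, showed the largest rise of the 8 tested probes in both genotypes. Its levels were 6.91 and 6.83 in KO MI, against 4.94 and 4.94 in KO sham. In WT MI they were 7.81 and 7.23, against 4.80 and 4.70 in WT sham. No MI array overlapped a sham array, and both sham groups were tight. The rise was 1.93 on the log2 scale in KO hearts (SE 0.18, 3.80-fold, limma adjusted p = 8.84e-05) and 2.77 in WT hearts (SE 0.18, 6.83-fold, adjusted p = 6.29e-06). A second Cd80 probe, with the lower mean level and outside the test, read 5.75 and 5.75 in KO MI, 6.69 and 6.64 in WT MI, 5.60 and 4.94 in KO sham, and 5.11 and 5.16 in WT sham. Its differences were smaller, 0.48 in KO hearts and 1.53 in WT hearts, and with the mean of both probes the rises were 1.21 (adjusted p = 6e-04) and 2.15 on the log2 scale. The size of the KO rise, and its rank among these genes, therefore depends on the probe. With all arrays the second probe differed by less in KO hearts than Cd86, Cd74, H2-Ab1 and H2-Aa did. On that probe KO sham replicate 1, an array that stood apart, read 5.60 against 4.94 in replicate 2. This order therefore also depends on that array.

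Cd86, the B7-2 ligand of the same receptors, also rose in both genotypes, by less than Cd80 on this scale. It read 5.62 and 5.49 in KO MI and 4.73 and 4.72 in KO sham, a rise of 0.83 (SE 0.18, 1.77-fold, limma adjusted p = 0.0098). In WT MI it read 6.04 and 5.46, against 4.42 and 4.54 in WT sham, a rise of 1.27 (SE 0.18, 2.41-fold, adjusted p = 0.00064). All 4 MI arrays lay above all 4 sham arrays. Without KO MI replicate 1 the KO rise of Cd86 was 0.76 with an adjusted p of 0.0748. Because the RNA came from whole hearts, a larger number of cells that express these genes and more RNA per cell cannot be told apart.

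H2-Aa, the alpha chain of I-A, was the class II gene that passed in KO hearts. Its levels were 8.55 and 8.67 in KO MI, against 7.74 and 8.17 in KO sham. In WT MI they were 8.59 and 8.08, against 8.39 and 8.33 in WT sham. Both KO MI arrays lay above both KO sham arrays, while the WT MI arrays fell on either side of the WT sham arrays. The KO difference was 0.65 (SE 0.19, 1.57-fold higher, limma adjusted p = 0.0385) and the WT difference -0.02 (SE 0.19, adjusted p = 0.947), which was 0.14 under cyclic loess scaling. Leaving out 1 array ended the KO call in 5 cases: KO MI replicate 1 (adjusted p = 0.111), KO MI replicate 2 (0.192), KO sham replicate 1 (0.187) or either WT sham array (0.0596 each). Leaving out both arrays that stood apart gave a KO difference of 0.44, with an adjusted p of 0.0499, and a WT difference of 0.23, with an adjusted p of 0.233.

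H2-Ab1, the beta chain that pairs with H2-Aa, had the widest spread within a group of any class II gene here. Its levels were 8.82 and 8.997 in KO MI, 8.75 and 7.79 in WT MI, 8.08 and 8.42 in KO sham, and 8.87 and 8.87 in WT sham. Both KO MI arrays were above both KO sham arrays and both WT MI arrays below both WT sham arrays, the second by over 1 on the log2 scale. Neither difference passed, at 0.66 in KO hearts (SE 0.26, limma adjusted p = 0.111) and -0.60 in WT hearts (SE 0.26, adjusted p = 0.12). The KO difference passed without either WT MI array (adjusted p = 0.0151 each), which enter only through the shared estimate of spread, and, at 0.49, without both arrays that stood apart (adjusted p = 0.0403). The WT difference was -1.08 without WT MI replicate 1 (adjusted p = 0.00399) and -0.12 without both arrays that stood apart (adjusted p = 0.56).

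H2-Eb1, the beta chain of I-E, was the class II gene that passed in WT hearts. The I-E alpha chain gene H2-Ea read 3.035 to 3.29 over the 8 arrays, near 3.045, the 10th percentile of gene means. H2-Eb1 read 7.63 and 7.29 in WT MI, against 7.95 and 7.94 in WT sham, and was lower in every WT MI array. In KO MI it read 7.86 and 8.0, against 7.52 and 7.78 in KO sham, with the KO MI arrays above the KO sham arrays. It fell by 0.48 in WT MI (SE 0.15, 1.40-fold lower, limma adjusted p = 0.0394), and the KO difference of 0.28 did not pass (SE 0.15, adjusted p = 0.251). The KO difference was 0.15 without both arrays that stood apart (adjusted p = 0.447). The WT call was lost under cyclic loess scaling (adjusted p = 0.0909) and without WT sham replicate 1 (0.155), WT sham replicate 2 (0.148), WT MI replicate 2 (0.241), either KO MI array (0.0592 each) or both arrays that stood apart (difference -0.31, adjusted p = 0.119).

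Cd74, the invariant chain, followed the I-A chains. It read 8.78 and 8.96 in KO MI, 8.74 and 8.07 in WT MI, 7.87 and 8.46 in KO sham, and 8.79 and 8.64 in WT sham. Both KO MI arrays were above both KO sham arrays, and the WT groups overlapped. The differences were 0.71 in KO hearts (SE 0.24, limma adjusted p = 0.0666) and -0.32 in WT hearts (SE 0.24, adjusted p = 0.371), and neither passed. The WT difference was 0.02 without both arrays that stood apart (adjusted p = 0.939). In KO hearts the adjusted p fell under the threshold with an intensity trend (0.0428), cyclic loess scaling (0.0335), without KO sham replicate 2 (difference 1.0, adjusted p = 0.0288) or without either WT MI array (0.0351 each), and it was 0.0848 without both arrays that stood apart (difference 0.41).

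Of the genes for peptide loading, H2-DMa, the alpha chain of H2-DM, read 6.12 and 6.18 in KO MI and 5.49 and 5.94 in KO sham. In WT MI it read 6.21 and 5.52, against 6.08 and 5.81 in WT sham. The KO arrays did not overlap and the WT arrays did, and neither the KO difference of 0.43 (SE 0.23, limma adjusted p = 0.233) nor the WT difference of -0.07 (SE 0.23, adjusted p = 0.844) passed. These differences, without both arrays that stood apart, were 0.21 in KO hearts (adjusted p = 0.364) and 0.27 in WT hearts (adjusted p = 0.238). The probe shared by H2-DMb1 and H2-DMb2, the beta chains of H2-DM, read 6.04 and 6.42 in KO MI, 5.98 and 5.88 in WT MI, 4.97 and 5.58 in KO sham, and 5.63 and 5.71 in WT sham. Its MI arrays were above the sham arrays of the same genotype in both cases, by 0.96 in KO hearts and 0.26 in WT hearts, with no test, and the 2 genes cannot be told apart on it.

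Ciita, the master regulator of class II transcription, varied as much within groups as between them. It read 4.54 and 4.93 in KO MI, 4.79 and 4.99 in WT MI, 4.87 and 4.66 in KO sham, and 4.99 and 4.46 in WT sham, so that all 4 groups overlapped. The differences between MI and sham were -0.03 in KO hearts (95% interval -0.48 to 0.42, limma adjusted p = 0.943) and 0.16 in WT hearts (95% interval -0.29 to 0.61, adjusted p = 0.603). Both intervals include 0, and the differences were 0.07 in KO hearts and 0.06 in WT hearts without both arrays that stood apart.

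**Figure D2:**
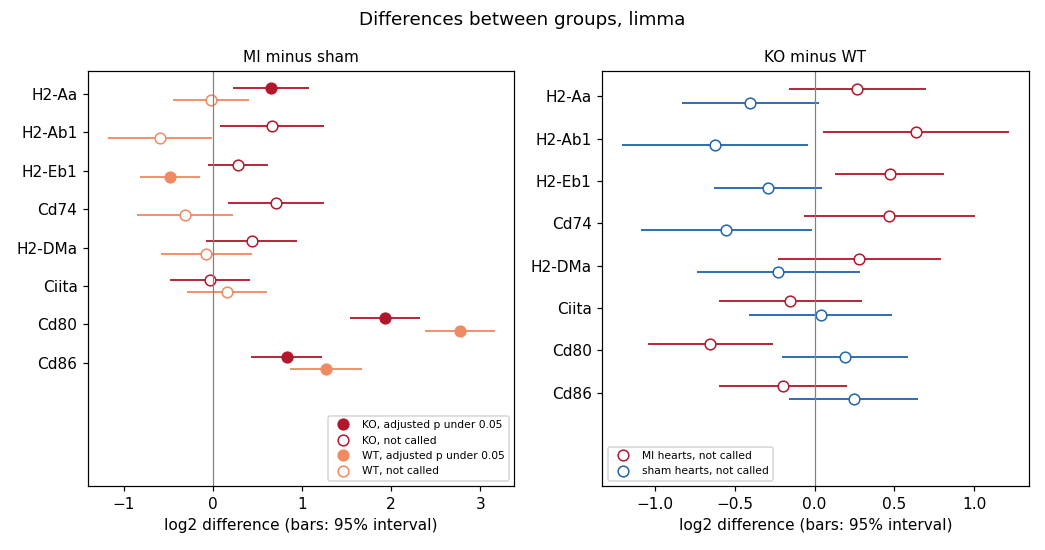
Differences in log2 level (x axis) of the 8 tested genes (y axis) with 95% intervals from limma. The left panel gives MI minus sham in KO and in WT hearts and the right panel KO minus WT in MI and in sham hearts. Filled points have an adjusted p under 0.05, namely H2-Aa, Cd80 and Cd86 in KO hearts and H2-Eb1, Cd80 and Cd86 in WT hearts, and all KO minus WT points are open.

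Between genotypes after infarction, 0 of the 8 genes passed in KO MI against WT MI, where 0.0702% of all genes passed, and 3 had an unadjusted p under 0.05, against 11.7% of all genes. By sign, the differences of the 5 class II genes were positive and those of both co-stimulation ligands negative. H2-Ab1, H2-Eb1 and Cd74 were higher in both KO MI arrays than in both WT MI arrays (24.2% of all genes were), by 0.64 (SE 0.26, limma adjusted p = 0.388), 0.47 (SE 0.15, adjusted p = 0.288) and 0.47 (SE 0.24, adjusted p = 0.492). H2-Aa and H2-DMa differed by 0.27 and 0.28 with overlapping arrays. Cd80 was lower in both KO MI arrays than in both WT MI arrays (20.2% of all genes were), by -0.65 (95% interval -1.05 to -0.26, adjusted p = 0.223), and Cd86 differed by -0.20 (95% interval -0.60 to 0.20, adjusted p = 0.722). Without both arrays that stood apart, the differences of H2-Ab1 and H2-Eb1 were 0.16 (adjusted p = 0.708) and 0.30 (adjusted p = 0.426), that of Cd74 was 0.13 (adjusted p = 0.775), that of H2-Aa 0.01 (adjusted p = 0.978) and that of H2-DMa -0.07 (adjusted p = 0.909). In the same setting the difference of Cd86 was -0.49 (adjusted p = 0.301) and that of Cd80 was -0.94 (adjusted p = 0.121).

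Between genotypes after sham surgery the signs were opposite, negative for the 5 class II genes and positive for both ligands. In KO sham against WT sham 0 of the 8 genes passed, where 0.0301% of all genes did, and H2-Ab1 and Cd74 had an unadjusted p under 0.05, against 5.1% of all genes. H2-Aa, H2-Ab1, H2-Eb1 and Cd74 were lower in both KO sham arrays than in both WT sham arrays (16.1% of all genes were), by -0.40 (SE 0.19, limma adjusted p = 0.992), -0.62 (SE 0.26, adjusted p = 0.937), -0.29 (SE 0.15, adjusted p = 0.9998) and -0.55 (SE 0.24, adjusted p = 0.952). Cd80 and Cd86 were higher in both KO sham arrays (16.6% of all genes were), by 0.19 and 0.24, with an adjusted p of 0.9998 for each. Without both arrays that stood apart the differences were smaller, -0.19 for H2-Aa (adjusted p = 0.73), -0.45 for H2-Ab1 (0.436), -0.16 for H2-Eb1 (0.766), -0.26 for Cd74 (0.676) and -0.01 for H2-DMa (0.995), while those of Cd80 and Cd86 stayed at 0.19 and 0.24. The comparison with WT sham shares its KO sham arrays with the comparison of KO MI and KO sham, so a low KO sham array enters both.

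The response to infarction in KO hearts minus that in WT hearts was tested directly, and 0 of the 8 genes passed, as did 0% of all genes. At an unadjusted p under 0.05 there were 5 of 8, H2-Aa, H2-Ab1, H2-Eb1, Cd74 and Cd80, against 8.21% of all genes. The difference of responses was 1.26 for H2-Ab1 (SE 0.37, limma adjusted p = 0.49), 1.02 for Cd74 (SE 0.34, adjusted p = 0.524), 0.76 for H2-Eb1 (SE 0.21, adjusted p = 0.487) and 0.67 for H2-Aa (SE 0.27, adjusted p = 0.595). It was -0.84 for Cd80 (SE 0.25, adjusted p = 0.494), whose second probe also rose less in KO than in WT hearts by its values, and -0.44 for Cd86 (SE 0.25, adjusted p = 0.675). H2-Ab1 and H2-Eb1 were the only 2 of the 8 with KO MI above KO sham and WT MI below WT sham in every array, a pattern in 1.22% of all genes. Without both arrays that stood apart the difference of responses was 0.61 (adjusted p = 0.568) for H2-Ab1, 0.39 (adjusted p = 0.684) for Cd74, 0.46 (adjusted p = 0.624) for H2-Eb1 and 0.20 (adjusted p = 0.807) for H2-Aa, and -1.13 (adjusted p = 0.335) for Cd80 and -0.73 for Cd86 (adjusted p = 0.531).

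The arrays of the 5 class II genes H2-Aa, H2-Ab1, H2-Eb1, H2-DMa and Cd74 moved together. For each of these 5 genes the 2 lowest of the 8 arrays were KO sham replicate 1 and WT MI replicate 2, the arrays that stood apart. Their mean distance from the WT sham mean was 0.06 and 0.19 in KO MI, 0.02 and -0.62 in WT MI, -0.63 and -0.21 in KO sham, and 0.05 and -0.05 in WT sham. So 1 array of WT MI and 1 of KO sham lay far below the rest, and the partner of the WT MI array lay at the WT sham level. Cd80 and Cd86 did not follow: their mean distance was 1.65 and 1.54 in KO MI, 2.31 and 1.73 in WT MI, 0.22 and 0.22 in KO sham, and -0.01 and 0.01 in WT sham. The part of what sets these 2 arrays apart in the class II values was not tested beyond leaving them out.

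**Figure D3:**
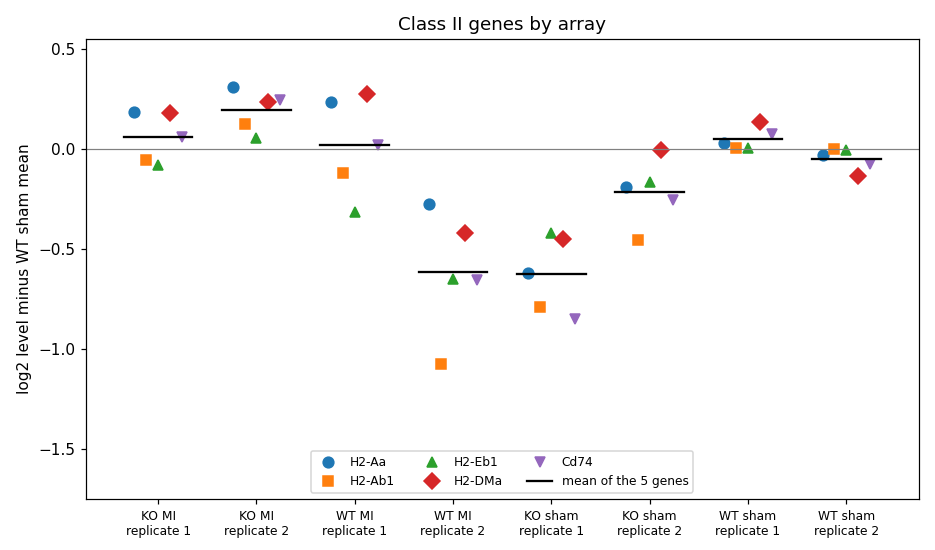
Log2 level minus the WT sham mean (y axis) of the 5 class II genes in each of the 8 arrays (x axis, KO MI, WT MI, KO sham, WT sham). Points are genes and black bars the mean of the 5, which is lowest in KO sham replicate 1 (-0.63) and WT MI replicate 2 (-0.62) and highest in KO MI replicate 2 (0.19).

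By group means, H2-Aa, H2-Ab1, H2-DMa and Cd74 all ran in the order KO MI, WT sham, WT MI and KO sham from high to low. For H2-Eb1 WT sham came first and WT MI last, with KO MI and KO sham between them. Neighbours in these orders overlapped in their arrays except KO MI and WT sham for H2-Aa and H2-DMa, WT sham and WT MI for H2-Ab1, and KO MI and KO sham for H2-Eb1. Cd80 and Cd86 ran in the order WT MI, KO MI, KO sham and WT sham, with no overlap between neighbours for Cd80 and an overlap between WT MI and KO MI for Cd86.

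Outside the 9 genes, the level most like the mean of H2-Aa, H2-Ab1, H2-Eb1 and Cd74 over the 8 arrays was that of Golph3l (Pearson r = 0.968), followed by Api5 (0.952), Usp25 (0.944), Tmpo (0.94) and Frg1 (0.94). For Cd86 it was Tmsb4x (0.992), then Rprl1 (0.988), Sirt7 (0.985), Macir (0.985) and Snrpd1 (0.984). These are the highest of 9718 genes with a mean above the median gene, they share the same 8 arrays, and the values are a description.

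The wider pathway was read from 7 lists with 69 measured genes of 78. In KO hearts 15 of the 69 rose and 2 fell after infarction, and in WT hearts 13 rose and 4 fell. Of all genes, 10.5% rose and 10.3% fell in KO hearts, and 12.3% rose and 15.8% fell in WT hearts. In the fit that leaves out both arrays that stood apart 14 rose and 3 fell in KO hearts, and 15 rose and 3 fell in WT hearts. In KO MI against WT MI, in KO sham against WT sham and in the difference of the responses 0 of the 69 passed, and 8, 3 and 4 had an unadjusted p under 0.05, where 11.7%, 5.1% and 8.21% of all genes did. None of these 3 counts exceeds that share of the 69.

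The 13 genes of the endosomal list, mostly proteases with an inhibitor, a reductase and lysosomal membrane proteins, held the most rises of the 7 lists. There were 5 of 13 in KO hearts, against 10.5% of all genes, and 4 of 13 in WT hearts, against 12.3%, with no falls. The median differences were 0.56 in KO hearts and 0.28 in WT hearts. They were 0.31 and 0.43 without both arrays that stood apart, so the order of the genotypes reversed. Ctss, cathepsin S, which trims Cd74, rose by 2.17 in KO hearts (SE 0.23, limma adjusted p = 0.0002) and 1.83 in WT hearts (SE 0.23, adjusted p = 0.00031). Ifi30, the thiol reductase GILT, rose by 1.94 in KO hearts and 2.15 in WT hearts, and Ctsz, cathepsin Z, by 1.59 in KO hearts and 1.19 in WT hearts. Lgmn, an asparaginyl endopeptidase, rose by 0.98 in KO hearts and 0.96 in WT hearts. Ctsd, cathepsin D, passed in KO hearts, where it rose by 0.68 (adjusted p = 0.00738). In KO hearts Lgmn did not pass without KO MI replicate 1 (adjusted p = 0.0737) and Ctsd without KO MI replicate 2 (adjusted p = 0.0527). Without both arrays that stood apart the counts were 6 of 13 in KO hearts, against 10.3% of all genes, and 7 of 13 in WT hearts, against 11.2%.

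Among 15 genes of class II transcription and interferon gamma signalling, 3 rose and 1 fell in KO hearts and 3 rose and 2 fell in WT hearts. Of all genes, 10.5% rose and 10.3% fell in KO hearts, and 12.3% rose and 15.8% fell in WT hearts. Spi1, the myeloid factor PU.1, rose by 1.48 in KO hearts and 1.86 in WT hearts, and Socs1, an inhibitor of JAK signalling, by 0.72 and 0.61. The RFX subunits Rfxap and Rfx5 had opposite signs in both genotypes and passed in KO hearts alone. There Rfxap rose by 0.60 (SE 0.14, limma adjusted p = 0.0133) and Rfx5 fell by 0.69 (SE 0.17, adjusted p = 0.0192). In WT hearts they differed by 0.31 (adjusted p = 0.131) and -0.36 (adjusted p = 0.148). The subunit Rfxank differed by 0.03 in KO hearts and 0.32 in WT hearts and passed in neither. In WT hearts the kinase gene Jak2 rose by 0.67, while Ifngr2, a chain of the interferon gamma receptor, fell by 0.67 and Creb1 fell by 0.46. Rfx5 in KO hearts and Socs1 and Creb1 in WT hearts did not pass without both arrays that stood apart. Leaving out 1 array also ended calls: in KO hearts that of Socs1 without KO MI replicate 2, of Rfxap without KO sham replicate 1 or either KO MI array and of Rfx5 without KO sham replicate 1 or KO MI replicate 2, with adjusted p up to 0.0577, 0.0942 and 0.16. In WT hearts it ended those of Socs1 without WT sham replicate 2 or WT MI replicate 2, Jak2 without WT sham replicate 2 or WT MI replicate 1 and Creb1 without either WT sham array or WT MI replicate 2, with adjusted p up to 0.122, 0.133 and 0.186.

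Of 4 other class II genes, H2-Oa, the alpha chain of the H2-DM inhibitor H2-O, rose by 0.55 in KO hearts (SE 0.16, limma adjusted p = 0.0347) and 0.60 in WT hearts (SE 0.16, adjusted p = 0.0181), and neither call held without both arrays that stood apart. Of 3 turnover genes, Marchf1, the ubiquitin ligase that removes class II and CD86 from the surface, rose by 0.72 in WT hearts (SE 0.15, adjusted p = 0.00547) and differed by 0.31 in KO hearts (SE 0.15, adjusted p = 0.193). Of 10 other ligands, Tnfsf9, the 4-1BB ligand, rose by 0.97 in KO hearts and 0.95 in WT hearts, and Icosl, the ICOS ligand, rose by 0.59 in WT hearts. Neither Tnfsf9 call held without both arrays that stood apart. With 1 array left out, the H2-Oa calls reached an adjusted p of 0.162 (without any of the 4 KO arrays in KO hearts, and without WT sham replicate 1 or WT MI replicate 2 in WT hearts). Those of Tnfsf9 reached 0.165 in KO hearts (without either KO sham array or KO MI replicate 2) and 0.143 in WT hearts (without WT sham replicate 1 or either WT MI array), and that of Marchf1 was 0.0561 without WT sham replicate 2.

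Of 9 T cell receptors of these ligands, Tnfrsf9, 4-1BB itself, rose by 1.93 in KO hearts and 2.09 in WT hearts (limma adjusted p = 4.31e-05 and 1.72e-05). Cd28, the receptor through which Cd80 and Cd86 stimulate T cells, fell by 1.06 in KO MI (SE 0.17, adjusted p = 0.00199) and by 0.91 in WT MI (SE 0.17, adjusted p = 0.00286). In each genotype 2 of the 9 fell without both arrays that stood apart. Both ligands of CD28 were thus higher and the receptor lower in MI than in sham hearts of each genotype. Of 15 class I presentation genes, 4 rose in KO hearts, Calr by 0.73, Psmb8 by 0.70, Pdia3 by 0.66 and the peptide transporter gene Tap1 by 0.66, and in WT hearts the immunoproteasome gene Psmb8 rose by 0.56 and the trimming peptidase gene Erap1 fell by 0.67. The shares of all genes were 10.5% for a rise in KO hearts, and 12.3% for a rise and 15.8% for a fall in WT hearts. With 1 array left out each of these class I calls was lost, at adjusted p up to 0.109 for Calr (without KO sham replicate 1 or KO MI replicate 2), 0.137 for Psmb8 and for Pdia3 in KO hearts (without KO sham replicate 1 or either KO MI array) and 0.294 for Tap1 (without KO MI replicate 1 or any sham array). In WT hearts it reached 0.222 for Psmb8 (without either WT sham array, WT MI replicate 1 or either KO MI array) and 0.11 for Erap1 (without either WT sham array or WT MI replicate 2). In WT hearts 3 of the 15 rose and 0 fell without both arrays that stood apart.

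**Figure D4:**
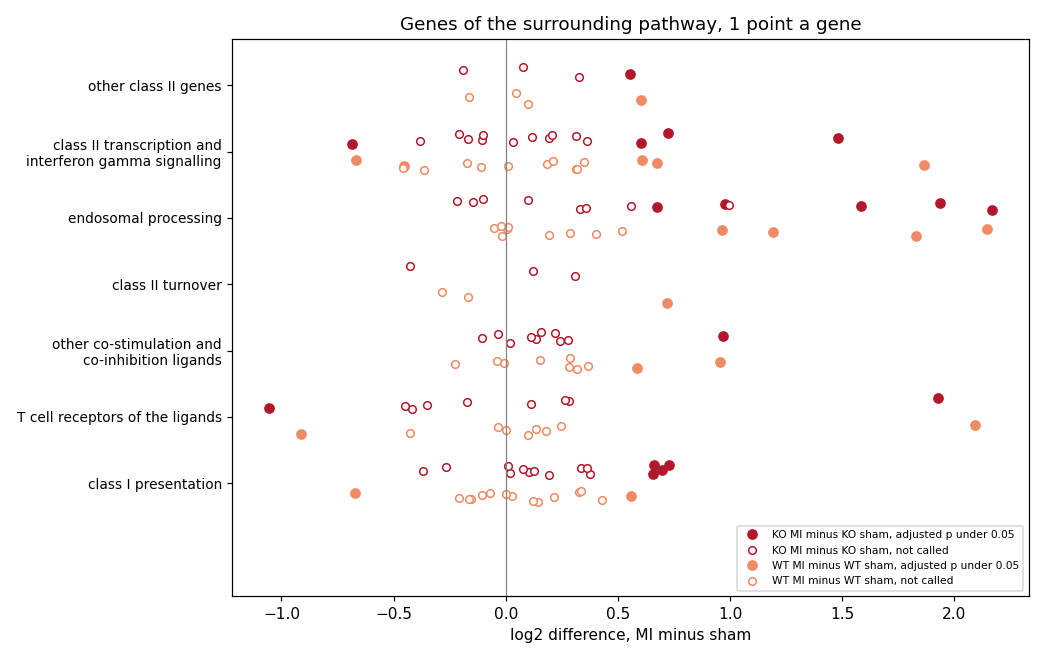
Difference in log2 level, MI minus sham (x axis), for the measured genes of 7 lists (y axis), 1 point a gene, KO hearts above WT hearts in each list. Filled points have an adjusted p under 0.05. The endosomal list reaches 2.17 in KO hearts and 2.15 in WT hearts, and Cd28 lies at -1.06 and -0.91 at the left of the T cell list.

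Markers of cells that can carry these genes also moved with infarction, and their part in the results was not tested. The counts after infarction below stand beside these shares of all genes. In KO hearts 10.5% of all genes rose and 10.3% fell, and in WT hearts 12.3% rose and 15.8% fell. The mean log2 level of 9 macrophage markers was 8.07 to 8.23 in KO MI, 7.87 to 8.43 in WT MI, 7.0 to 7.30 in KO sham and 7.11 to 7.18 in WT sham, and 3 of the 9 rose in each genotype, Cd68, Fcgr1 and Itgam. The median differences of the 9 markers were 0.31 in KO hearts and 0.23 in WT hearts. They were 0.15 and 0.64 without both arrays that stood apart, so the order of the genotypes reversed. All 4 monocyte markers and all 6 neutrophil markers rose in both genotypes. In KO MI against WT MI 1 of the 4 monocyte markers passed, Chil3, with a difference of -2.09 (limma adjusted p = 0.0248). That call was lost in 8 of the 16 alternatives, and 1 of the 4 had a positive difference. Of the 6 neutrophil markers 0 passed between these groups. All 6 differences were negative with an unadjusted p under 0.05, against 11.7% of all genes in either direction. Neutrophil markers averaged 7.87 to 8.43 in KO MI, 9.11 to 9.80 in WT MI, 4.09 to 4.40 in KO sham and 4.25 to 4.44 in WT sham, and monocyte markers 7.52 to 7.66 in KO MI, 7.49 to 8.26 in WT MI, 4.46 to 4.60 in KO sham and 4.49 to 4.58 in WT sham. Of 13 dendritic cell markers, 3 rose in KO hearts, Flt3, Itgax and Irf8, and 3 in WT hearts, Itgax, Irf8 and Ccr7, and the list averaged 4.98 to 5.15 in KO MI, 5.04 to 5.16 in WT MI, 4.69 to 4.80 in KO sham and 4.67 to 4.69 in WT sham. Of 8 B cell markers 0 passed in either genotype in limma, with 2 in KO hearts and 1 in WT hearts at an unadjusted p under 0.05. The list averaged 4.09 to 4.42 in KO MI, 4.25 to 4.27 in WT MI, 4.07 to 4.11 in KO sham and 4.16 to 4.22 in WT sham. For scale, the median gene had a mean level of 5.80, and the 10th percentile of genes was 3.045. At levels this low, here and for T and NK cells below, a lack of calls does not show that the cells were unchanged. Resident macrophage markers averaged 7.26 to 7.33 in KO MI, 7.34 to 7.42 in WT MI, 7.09 to 7.43 in KO sham and 7.36 to 7.42 in WT sham, and KO sham replicate 1 was again the lowest array. This average covers calls in opposite directions. F13a1 passed at 0.96 in KO hearts and 1.38 in WT hearts, and Folr2 at -0.69 and -1.31. Timd4 passed in KO hearts alone, at -0.67. The KO calls of Folr2 and Timd4 did not hold in every alternative. T and NK cell markers averaged 3.76 to 3.81 in KO MI, 3.91 to 4.13 in WT MI, 3.84 to 3.97 in KO sham and 3.72 to 3.85 in WT sham, with 0 of 8 passing in KO hearts (1 at an unadjusted p under 0.05) and 1 in WT hearts. The WT call was Cd8a, a difference of 0.43 (limma adjusted p = 0.0432), which was lost in 12 of the 16 alternatives at an adjusted p of up to 0.286, 0 of 8 passing without both arrays that stood apart.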

How the data were processed

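Biotin-labelled cRNA was made from total RNA of whole mouse hearts and run on Affymetrix Mouse Gene ST arrays, per the labels. The deposited values are log2 levels from Affymetrix Expression Console with RMA, per the submitters' processing notes. No version and no genome build is stated there. RMA as commonly run includes quantile normalization, which reduces a shift shared by most genes. Groups and replicate numbers came from the labels.

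Of 35556 probes, 21789 were annotated to 1 gene, 1621 to several and 12146 were not listed. Each gene was represented by its probe with the highest mean, which mattered for 999 genes, with no filter on low values. All 8 arrays entered a single limma model of 4 group means (limma 3.58.1, R 4.3.3, with 4 residual and 5.57 prior degrees of freedom). Tests were two-sided, with Benjamini-Hochberg adjustment over 19938 genes. An exact permutation test of 2 arrays against 2 has a smallest p of 0.333, which is why the model was used, and precision is limited by the few arrays.

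The genes and lists were chosen with earlier results of these data known. The naming rule covered the 9 listed genes, Fbxo32, the 3 genes of each list with the smallest p in each pairwise comparison, and the 5 genes most like each pattern. Lgmn, Ctsd, Rfx5, Jak2, Creb1, Tap1 and the single markers were named after their values were seen. The closing section describes 16 alternatives. Promoter windows came from RefSeq (GRCm38.p6), and the X box letters were chosen after a longer form had been searched.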

Additional observations from a re-analysis of the deposited data

Results flagged for a closer look

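H2-Ab1 and H2-Eb1 drew attention because every KO MI array was above every KO sham array while every WT MI array was below every WT sham array. The difference between the KO and WT responses was 1.26 for H2-Ab1 and 0.76 for H2-Eb1 on the log2 scale, and the test of that difference did not pass for either (limma, adjusted p = 0.49 and 0.487). Of all genes, 1.22% showed this pattern.

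Both probes left out of the test also gave a signal. The second Cd80 probe differed between MI and sham by 0.48 in KO hearts and 1.53 in WT hearts. On it KO sham replicate 1, an array that stood apart, read 5.60 and lay close to the KO MI arrays, at 5.75 each. The probe shared by H2-DMb2 and H2-DMb1 differed by 0.96 in KO hearts and 0.26 in WT hearts. Neither difference was tested.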

How the results depend on the processing

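The alternatives were an intensity trend in the prior, a filter on the genes with the lowest means, the mean of a gene's probes, scaling by cyclic loess or by array medians, a replicate block, a fit of the compared groups alone (not for the difference of responses), each of the 8 arrays left out, and, chosen after seeing the data, both arrays that stood apart left out. A group left with 1 array borrowed its spread from the others. With all arrays 20.8% of all genes passed in KO MI against KO sham and 28.1% in WT MI against WT sham. The share in each alternative is not given here, so the counts below describe the 8 genes alone and cannot be set against all genes. The number of the 8 genes that passed was 1 to 5 in KO MI against KO sham when 1 array was left out, 5 without either WT MI array and 1 without KO MI replicate 1, against 3 with all arrays. It was 2 to 4 in WT MI against WT sham, 4 without WT MI replicate 1, and 0 to 0 in the other 3 comparisons. Replicate numbers were shared between groups, but deviations of same-numbered arrays correlated at -0.187 to 0.156, so the numbers were not taken as pairs. With the replicate block 2 genes passed in KO MI against KO sham (H2-Aa, adjusted p = 0.0579), 2 in WT MI against WT sham (H2-Eb1, adjusted p = 0.0586) and 0 in the other 3 comparisons. With only the compared groups H2-Ab1 passed in KO hearts (adjusted p = 0.0326). Of 632 values for single genes, 583 kept their direction and side of the threshold, 15 lost and 10 gained the call, and 24 changed sign, with 0 of those called either way.

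Sign changes in MI minus sham were as follows, and the cause was not tested. With 1 array left out Ciita was 0.0744 and 0.165 in KO hearts and -0.108 in WT hearts. In WT hearts H2-Aa was 0.142 under cyclic loess, and without 1 array 0.0074 to 0.233 at its sign changes, H2-DMa 0.0588 to 0.271 and Cd74 0.0199. In KO MI minus WT MI, H2-DMa was -0.066, Ciita 0.0458 and Cd86 0.0951. In KO sham minus WT sham, Ciita was -0.228 and -0.0659. In the difference of responses, Ciita was 0.0771 and 0.00607. Without both arrays that stood apart Ciita was 0.0744 in KO hearts, -0.0659 between sham groups and 0.0151 in the difference of responses, H2-Aa was 0.233, H2-DMa 0.271 and Cd74 0.0199 in WT hearts, and H2-DMa was -0.066 between MI groups and -0.0604 in the difference of responses. Over the leave-one-out fits these results spanned -0.228 to 0.165 for Ciita in KO hearts, -0.277 to 0.233 for H2-Aa in WT hearts, -0.42 to 0.271 for H2-DMa in WT hearts, -0.653 to 0.0199 for Cd74 in WT hearts, -0.108 to 0.427 for Ciita in WT hearts, -0.066 to 0.626 for H2-DMa in KO MI minus WT MI, -0.348 to 0.0458 for Ciita in KO MI minus WT MI, -0.492 to 0.0951 for Cd86 in KO MI minus WT MI, -0.228 to 0.307 for Ciita in KO sham minus WT sham and -0.458 to 0.0771 for Ciita in the difference of responses.

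Of 78 calls among Fbxo32, the pathway lists and the marker lists, 49 held in every alternative and 29 were lost in at least 1, among them Tap1 and Tnfsf9 in KO hearts. All 4 calls of Ctss and Ifi30, and those of Cd28 and Tnfrsf9, held.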
